A study of Mus musculus with 6 samples.

Results

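The 6 genes described here, Grm2, Grm3, Grm4, Grm5, Grm7 and Grm8, encode metabotropic glutamate receptors. They were chosen by name, as members of 1 receptor family, and not by their values. All 6 are listed among the 19006 mouse genes of the SCRB-seq wells, the 21987 genes of the SMART-Seq2 wells, the 23295 genes of the FFPE and frozen plate nuclei and the 19905 genes of the droplet nuclei. Nuclei came from formalin-fixed, paraffin-embedded (FFPE) brain, cut as 50 µm scrolls, or from frozen tissue, and for the FFPE material the labels name the strain C57BL/6J and an age of 8 to 12 weeks. The bulk FFPE wells stand for 3 ways of removing paraffin: heated mineral oil, heated xylene, and xylene at room temperature. The labels name the tissue cortex in each of the 6 deposited samples, and nothing in them ties a well or nucleus to an animal. Frozen wells and nuclei are named in the annotation tables, without strain, age or animal.

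Metabotropic glutamate receptors are G protein-coupled receptors that answer glutamate with second messengers rather than with an ion current. Group I receptors, here Grm5, couple to Gq, phospholipase C and calcium release and sit mostly after the synapse, tied to Homer and Shank scaffolds. Group II (Grm2 and Grm3) and group III (Grm4, Grm7 and Grm8) couple to Gi and Go, lower cyclic AMP and restrain transmitter release. In the rodent brain Grm4 is known for cerebellar granule neurons, Grm3 for glia as well as neurons, and Grm7 for presynaptic active zones over much of the brain.

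The members differ far more in gene length than in exon length, and nuclear RNA holds many unspliced transcripts. No source used here says whether reads in introns were counted. On GRCm38 with GENCODE M21, Grm2 (ENSMUSG00000023192.12) lies on chromosome 9 from 106643095 to 106656082 and spans 13.0 kb. Grm3 (ENSMUSG00000003974.6) spans 240 kb on chromosome 5, from 9485541 to 9725170. Grm4 (ENSMUSG00000063239.17) spans 99.0 kb on chromosome 17, from 27422387 to 27521403. Grm5 (ENSMUSG00000049583.15) spans 551 kb on chromosome 7, from 87584168 to 88134907. Grm7 (ENSMUSG00000056755.13) spans 922 kb on chromosome 6, from 110645581 to 111567230, and its exons fill 0.639% of that span. Grm8 (ENSMUSG00000024211.15) spans 860 kb on the same chromosome, from 27275119 to 28135178. The exons of the 6 genes sum to 3.05 to 10.2 kb each. Each gene overlaps 1 to 6 other annotated genes, such as Mir592 inside Grm8 and the antisense gene Gm20387 at Grm7. No source used here says whether counting used strand, so reads of such pairs cannot be told apart.

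The SCRB-seq table holds 16 wells for each method and 16 frozen wells, with 10 nuclei in 8 wells of each 16 and 100 nuclei in the other 8. SCRB-seq is a pooled method that tags the 3′ ends of transcripts, and SMART-Seq2 copies full-length cDNA. The wells of 1 treatment and 1 nuclei number formed 1 library pool, so pool and group cannot be told apart, and p-values over wells measure only the spread between technical wells. Mouse counts per SCRB-seq well ran from 7512 to 167144, and the 8 mineral oil wells of 10 nuclei were the shallowest group, with 7512 to 20593. The SMART-Seq2 table holds 12 wells, 1 each of 10, 50 and 100 nuclei per treatment, with 270363 to 942966 counts. By the median, FFPE wells held more of the cerebellar granule neuron markers than frozen wells, although the labels name cortex. Summed over 9 cerebellar granule neuron markers, SCRB-seq FFPE wells had 449 to 7055 counts-per-million (CPM, median 2853) and frozen wells 56.8 to 605 (median 393), with Gabra6 and Cbln3 at 0 in all frozen wells. In SMART-Seq2 the same list had 2754 to 8660.2 CPM in FFPE wells and 385 to 673 in frozen wells, where Gabra6, Cbln3, Cbln1 and Zic1 were at 0. The list of 8 cortical glutamatergic markers went the other way, with a median of 518 CPM in FFPE and 1601 in frozen SCRB-seq wells. So did 6 striatal neuron markers (527 and 1321 CPM), while 8 GABAergic markers were higher in FFPE (703 and 192), as were glial markers (1606 and 627 for astrocytes, 1264 and 388 for oligodendrocytes). The mineral oil wells alone lay under the frozen wells for the GABAergic markers (89.2) and the oligodendrocyte markers (233). In bulk wells, fewer cells of a type and less RNA per cell cannot be told apart. The part of these markers in the results below was not tested.

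The first comparison set the FFPE wells of the 3 methods together against the frozen wells. In SCRB-seq, 5 of the 6 members passed the filter on low counts, and all 5 were called at an adjusted p under 0.05 (edgeR's quasi-likelihood test, p-values adjusted by Benjamini-Hochberg over all genes tested), among 857 of 1478 genes tested. That background was 58.0% of genes called, 30.2% of them higher and 27.7% lower as shares of the genes tested, so the share of members called is read against a very common event. Grm4 and Grm7 were higher in FFPE, and Grm3, Grm5 and Grm8 lower. The median of the 5 members was -0.70 on the log2 scale, against 0.00 for all genes. In SMART-Seq2, 5 members were tested and 3 were called, Grm4 higher and Grm5 and Grm7 lower, where 4.09% of 9092 genes were called, 1.45% higher and 2.64% lower. The members' median there was -0.96 and that of all genes -0.13. When each SCRB-seq pool was summed into 1 unit, leaving 6 FFPE and 2 frozen units, edgeR called 0 of the 5 members (4 at an unadjusted p under 0.05), and 77 of 10235 genes.

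Grm5, the postsynaptic group I receptor, was lower in FFPE wells of both chemistries. In SCRB-seq its CPM ran from 270 to 1195 in frozen wells (median 787) and from 0 to 2279.6 in FFPE wells (median 130). All but 1 of the 48 FFPE wells lay under the frozen mean of 803 ± 213 (SD, n = 16), and 30 lay under the lowest frozen well. The log2 fold change was -1.70 (SE 0.32, adjusted p = 4.99e-06 by edgeR's quasi-likelihood test), and the adjusted p was 0.159 with pools as units. Over 9 alternative fits the log2 fold change ran from -2.74 to -1.43. In SMART-Seq2 the frozen wells of 10, 50 and 100 nuclei had 892, 1402 and 1219 CPM. The heated xylene wells had 630, 531 and 507 CPM in the same order, the room-temperature xylene wells 353, 346 and 811, and the mineral oil wells 87.8, 185 and 191. The 9 FFPE wells all lay under the 3 frozen wells; FFPE and frozen wells did not overlap, in either direction, for 8.68% of the genes tested. The log2 fold change was -1.99 (SE 0.35, adjusted p = 0.000957 by edgeR), and it stayed between -2.07 and -1.80 when any 1 well was left out. A difference between the chemistries was not detected in a joint edgeR fit of the wells of both chemistries: 0.14 on the log2 scale, with an interval from -1.45 to 1.74 (adjusted p = 0.976).

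Grm3, the group II receptor shared by glia and neurons, was called in SCRB-seq only, and lower in FFPE wells, where the astrocyte markers were higher, and the oligodendrocyte markers too except with mineral oil. Its CPM ran from 54.1 to 506 in frozen SCRB-seq wells (median 343) and from 0 to 374 in FFPE wells (median 56.8), and 46 of the 48 FFPE wells lay under the frozen mean of 304 ± 163 (SD, n = 16). The log2 fold change was -1.81 (SE 0.31, adjusted p = 9.13e-07 by edgeR, 0.152 with pools as units). In SMART-Seq2 the 3 frozen wells had 302, 300 and 324 CPM, close to one another. The FFPE wells spread on both sides of them, from 13.7 CPM in the mineral oil well of 10 nuclei to 1249 in the heated xylene well of 10 nuclei. The difference there was -0.74 (SE 0.64, interval -1.98 to 0.51, adjusted p = 0.685 by edgeR), and the SCRB-seq value of -1.81 lies within that interval. The joint fit gave a difference between chemistries of -1.27 (interval -2.99 to 0.45, adjusted p = 0.627 by edgeR).

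Grm2, the other group II receptor, had few counts in the wells of both chemistries and passed the filter in neither. All 16 mineral oil and all 16 heated xylene SCRB-seq wells held 0 counts, 4 room-temperature xylene wells held 11 counts together, and 9 frozen wells held 17 of 1065514. In SMART-Seq2 the 3 frozen wells held 3, 3 and 5 counts, and 1 of the 9 FFPE wells held 6. Without the filter, edgeR called Grm2 lower in FFPE in SCRB-seq (-2.23, adjusted p = 2.03e-05), on 28 counts in all, and not in SMART-Seq2 (adjusted p = 0.212). That SCRB-seq fit called 4785 genes, against 857 with the filter.

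Grm4, the group III receptor of cerebellar granule neurons, had the largest rise of the members. In frozen SCRB-seq wells it ran from 0 to 162 CPM (median 11.3) and in FFPE wells from 0 to 733 (median 215). Of the 48 FFPE wells, 33 lay above the highest frozen well and 42 above the frozen mean. How many of all genes show such a separation in SCRB-seq was not counted. The mean was 281 ± 216 CPM in FFPE (SD, n = 48) and 28.1 ± 45.6 in frozen wells (n = 16), a log2 fold change of 3.06 (SE 0.45, adjusted p = 1.17e-08 by edgeR, 0.100 with pools as units). The rise was 4.27 in wells of 100 nuclei and 1.79 in wells of 10, where the frozen wells reached 162 CPM. In SMART-Seq2 the frozen wells of 10, 50 and 100 nuclei had 33.7, 7.40 and 12.9 CPM. Every FFPE well was above them, from 102 CPM in the room-temperature xylene well of 10 nuclei to 548 in the mineral oil well of 10 nuclei. FFPE and frozen SMART-Seq2 wells did not overlap, in either direction, for 8.68% of the genes tested. The log2 fold change was 3.96 (SE 0.72, adjusted p = 0.00135 by edgeR). With 1 well left out in turn it ran from 3.75 to 4.91, the highest without the frozen well of 10 nuclei. The granule neuron markers given above were higher in the same wells.

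**Figure D1:**
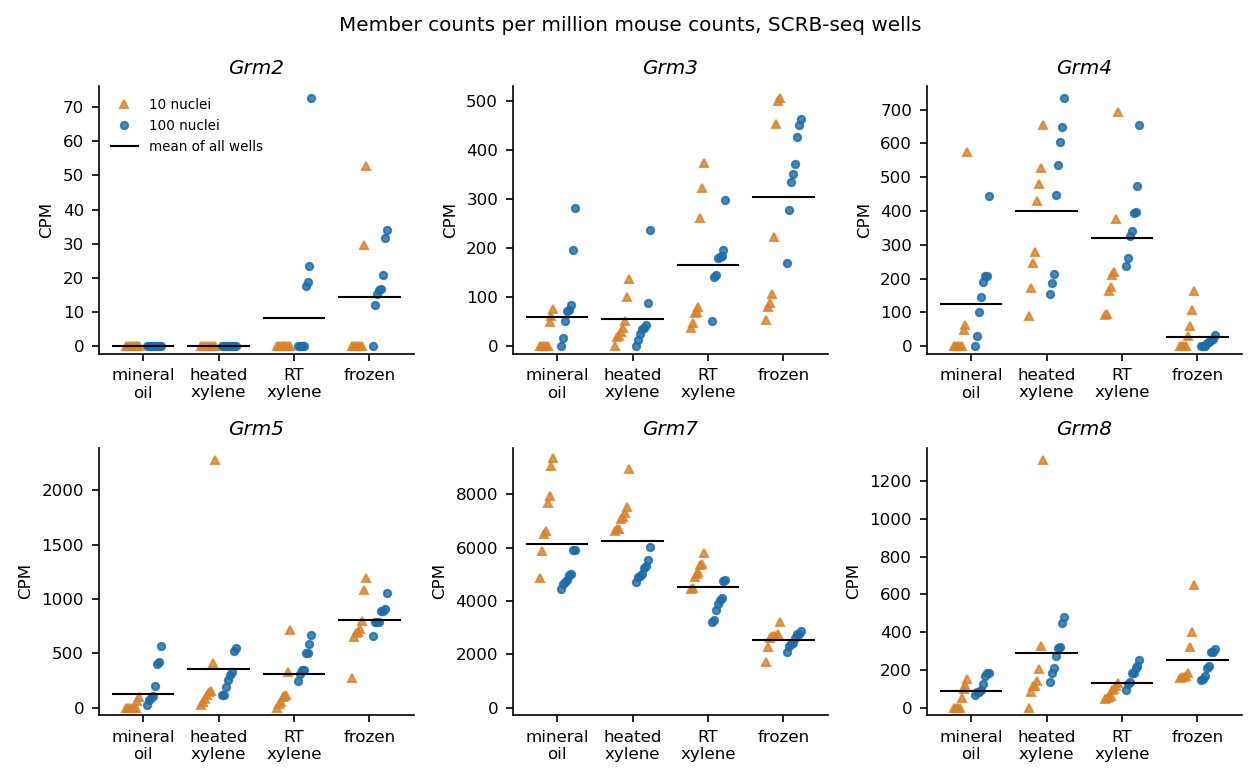
Each point is 1 SCRB-seq well, with its level in CPM of mouse counts on a linear axis of its own for each receptor gene, grouped by treatment; triangles are wells of 10 nuclei, circles wells of 100, and bars the mean of the 16 wells. Of the 48 FFPE wells, 47 lie above all frozen wells for Grm7 and 33 for Grm4, and the means of Grm3 and Grm5 are highest in frozen wells.

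Grm7, the presynaptic group III receptor, went in opposite directions in the 2 chemistries. In SCRB-seq it was by far the most counted member, with 1726 to 3228 CPM in frozen wells (median 2638) and 3221 to 9381 in FFPE wells (median 5161). Of the 48 FFPE wells, 47 lay above the highest frozen well, a separation that was not counted over all genes in SCRB-seq. The log2 fold change was 1.11 (SE 0.14, adjusted p = 4.07e-10 by edgeR, 0.278 with pools as units). In SMART-Seq2 the frozen wells of 10, 50 and 100 nuclei had 2318, 1786 and 2070.0 CPM. The heated xylene wells had 331, 226 and 379 CPM in that order, the room-temperature xylene wells 242, 249 and 302, and the mineral oil wells 107, 177 and 80.8. All 9 FFPE wells lay far under the 3 frozen wells, where 8.68% of the genes tested had no overlap in either direction. The log2 fold change was -3.52 (SE 0.31, adjusted p = 2.31e-07 by edgeR). With 1 well left out in turn it stayed between -3.62 and -3.34.

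The frozen wells of the 2 chemistries had similar levels of Grm7, with means of 2551 ± 349 CPM (SD, n = 16) in SCRB-seq and 2058 ± 266 (n = 3) in SMART-Seq2. The FFPE wells did not: 5633 ± 1455 (n = 48) against 233 ± 98.7 (n = 9), a ratio of 24.2. In the joint fit the SCRB-seq difference between FFPE and frozen exceeded the SMART-Seq2 difference by 4.43 on the log2 scale (SE 0.37, adjusted p = 4.12e-18 by edgeR's quasi-likelihood test), where 2.66% of 5902 genes were called and the median of all genes was -0.26. limma with weights per chemistry gave 4.44 (adjusted p = 2.14e-11). Grm7 was the only one of the 5 tested members called in that comparison. This test was added after the values had been seen. Within SCRB-seq, the FFPE wells of 10 nuclei had a higher Grm7 level than those of 100. The means were 7244 ± 1553 and 5045 ± 571 CPM with mineral oil, 7267 ± 761 and 5209 ± 428 with heated xylene, and 5061 ± 459 and 3971 ± 592 with xylene at room temperature (SD, n = 8 each). The frozen wells had 2578 ± 431 and 2525 ± 270, so the frozen wells showed no such gap. The scaling changed the size of the SCRB-seq difference and not its direction: with DESeq2's size factors, which moved the median of all genes to -0.58, Grm7 was at 0.45 (adjusted p = 0.000141), which is 1.03 above that median. Under that scaling 309 genes were called higher and 674 lower, against 447 and 410 with TMM.

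**Figure D2:**
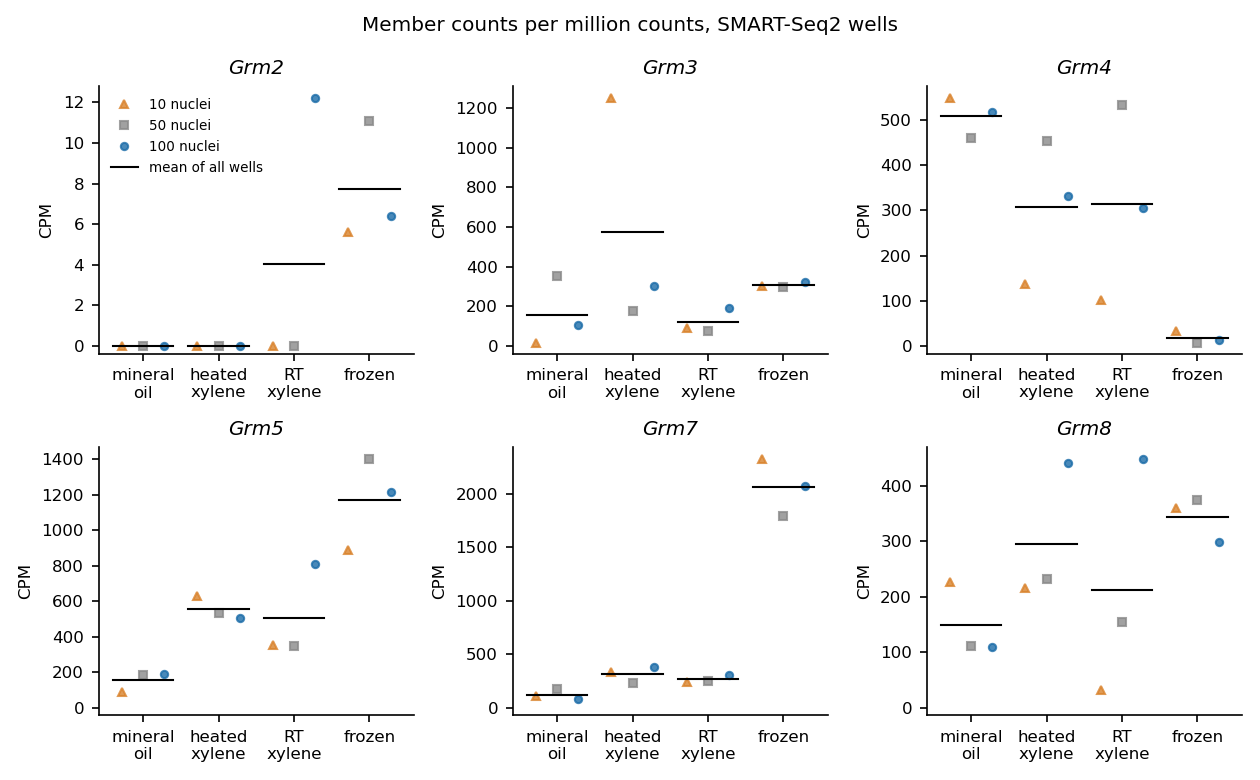
Each point is 1 SMART-Seq2 well, with its level in CPM on a linear axis of its own for each receptor gene, grouped by treatment; triangles, squares and circles are wells of 10, 50 and 100 nuclei, and bars the mean of the 3 wells. Grm7 runs from 80.8 to 379 in the 9 FFPE wells and from 1786 to 2318 in the 3 frozen wells, while Grm4 is lowest in the frozen wells.

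Grm8, the last group III receptor, had the smallest difference of the 5 tested members in SCRB-seq with TMM scaling. With DESeq2's size factors Grm7 was at 0.45, so this rank is given for TMM alone. Its CPM ran from 148 to 651 in frozen SCRB-seq wells (median 197) and from 0 to 1314 in FFPE wells (median 126), and 40 of the 48 FFPE wells lay under the frozen mean of 251 ± 132 (SD, n = 16). The log2 fold change was -0.70 (SE 0.27, adjusted p = 0.0239 by edgeR), and the call was lost in wells of 100 nuclei alone (-0.35, adjusted p = 0.268), without the filter (0.180), without the mineral oil wells of 10 nuclei (0.0975) and with pools as units (0.581). In SMART-Seq2 the frozen wells had 359, 374 and 298 CPM and the FFPE wells 32.5 to 448. The difference was -0.96 (SE 0.55, interval -2.04 to 0.12, adjusted p = 0.460 by edgeR).

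**Figure D3:**
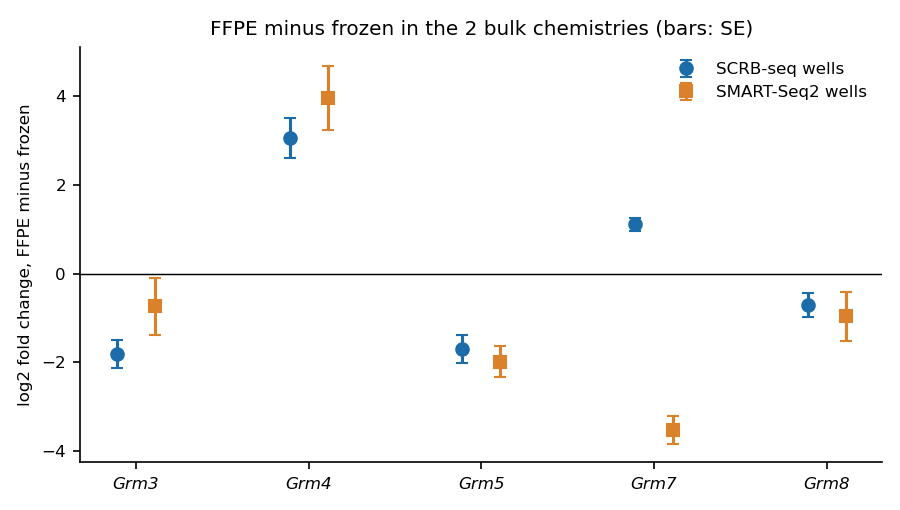
Points are log2 fold changes of FFPE minus frozen wells from edgeR for the 5 tested members, circles for SCRB-seq and squares for SMART-Seq2, and bars are standard errors. Grm4 is above 0 and Grm5 below 0 in both, and Grm7 is at 1.11 in SCRB-seq and at -3.52 in SMART-Seq2.

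The second question of the wells was whether the 3 ways of removing paraffin differ. In SCRB-seq 4 members passed the filter, Grm4, Grm5, Grm7 and Grm8. Against heated xylene, mineral oil wells had less Grm4 (mean 125 ± 170 and 400 ± 208 CPM, SD, n = 16 each, log2 fold change -1.62, SE 0.41, adjusted p = 0.00668 by edgeR). They also had less Grm8 (88.2 ± 65.1 and 292 ± 303 CPM, -1.58, SE 0.40, adjusted p = 0.00579), and these were 2 of the 4 members tested, where 8.52% of 1080 genes were called. The Grm8 mean of heated xylene includes a well at 1314 CPM. Without the shallow mineral oil wells of 10 nuclei, Grm4 was at -1.30 (adjusted p = 0.0411) and Grm8 at -1.28, with an adjusted p of 0.0632. Against room-temperature xylene, Grm4 was again lower in mineral oil (-1.30, SE 0.41, adjusted p = 0.0320 by edgeR, mean of room-temperature xylene 319 ± 177 CPM), the only 1 of 4 members called, where 10.3% of genes were called. With the nuclei number as a factor edgeR called Grm7 as well, higher in mineral oil (0.31, interval 0.09 to 0.53, adjusted p = 0.0446), where 18.6% of genes were called. In SMART-Seq2 Grm4 lay the other way: the mineral oil wells of 10, 50 and 100 nuclei had 548, 461 and 518 CPM, the heated xylene wells 137, 454 and 331, and the room-temperature xylene wells 102, 533 and 306. The differences of 0.74 (interval -0.51 to 2.00) and 0.81 (-0.44 to 2.07) were not called, and whether the 2 chemistries differ in this was not tested. The SCRB-seq call against room-temperature xylene was lost within wells of 10 nuclei (adjusted p = 0.0620), within wells of 100 nuclei (0.0949) and without the shallow wells (0.128). With pools as units edgeR called 0 members in any of the 3 method comparisons (0 at an unadjusted p under 0.05). The granule neuron markers did not follow Grm4 here: their median sum was 3516 CPM with mineral oil, 2825 with heated xylene and 2645 with xylene at room temperature. Other markers did move with the method. The sum of 8 GABAergic markers had a median of 89.2 CPM with mineral oil, 943 with heated xylene and 849 with xylene at room temperature, and that of 6 oligodendrocyte markers 233, 2270.0 and 2005. Their part in the results was not tested.

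Heated against room-temperature xylene gave 0 calls among the 4 members by edgeR (2 at an unadjusted p under 0.05), where 1.94% of genes were called. DESeq2's Wald test called Grm7, among 36 genes in all, and Grm8 was at 1.17 (interval 0.44 to 1.90, adjusted p = 0.0853 by edgeR). The Grm7 means of 6238 ± 1219 and 4516 ± 761 CPM (SD, n = 16 each) correspond to 0.41 on the log2 scale (interval 0.08 to 0.74, adjusted p = 0.193 by edgeR). With the nuclei number as a factor, edgeR called both Grm7 and Grm8 (adjusted p = 0.0220 and 0.0322, background 5.74%), and in wells of 100 nuclei alone Grm7 (0.0495, among 117 genes called). Without the filter it called Grm3 lower in heated xylene (-1.59, adjusted p = 0.0245, means 54.5 ± 61.3 and 165 ± 106 CPM, SD, n = 16 each) and Grm2 lower (-2.40, adjusted p = 0.00209, on 11 counts in all). Calls were far more common in that fit, with 2899 genes called against 21 with the filter. In SMART-Seq2 Grm3 went the other way, at 2.43 (interval 0.64 to 4.22), and was not called. That difference fell to 1.02 without the heated xylene well of 10 nuclei, which had 1249 CPM. In SMART-Seq2, with 3 wells per method, edgeR called 0 of 8372 genes in each of the 3 comparisons, a background of 0%. Of the 5 members tested, 2 (Grm3 and Grm5) had an unadjusted p under 0.05 in mineral oil minus heated xylene, 1 (Grm3) in heated minus room-temperature xylene and 1 (Grm5) in mineral oil minus room-temperature xylene, and DESeq2's Wald test called 0. Intervals were wide: Grm7 in mineral oil minus heated xylene was at -1.38, with an interval from -2.78 to 0.02.

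Single nuclei in plates were prepared with SMART-Seq2. The sample labels name a further FFPE plate batch after batches 1 and 2, which was not used here. Batch 1 has 98 FFPE nuclei, batch 2 has 134, and the frozen plates have 137, with median totals of 180584, 42747 and 255329 counts. Because depth differs, shares of nuclei with a count are given after drawing each nucleus down to 10000 counts, which keeps 90, 126 and 127 nuclei. Each arm counts as 1 sample, so there is no test, and intervals are exact (Clopper-Pearson) binomial 95% intervals that cover counting error only. A further 9 FFPE nuclei stand beside batch 2 in the whole-series table with 102136 to 4973791 counts. A single one of them held 40.2% of all FFPE counts of Grm7 and 59.4% of those of Grm3, so sums over all 143 FFPE nuclei are not used below except where named.

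Grm7 and Grm5 were seen in most frozen nuclei and in a minority of FFPE nuclei. Grm7 had a count in 74.8% of frozen nuclei (66.3 to 82.1%), 40.0% of batch 1 (29.8 to 50.9%) and 32.5% of batch 2 (24.5 to 41.5%). Grm5 had a count in 66.1% of frozen nuclei (57.2 to 74.3%), 32.2% of batch 1 (22.8 to 42.9%) and 33.3% of batch 2 (25.2 to 42.3%). For both genes the intervals of the frozen nuclei lie above those of either FFPE batch. For Grm7 the pooled level had the same order, 742 CPM in frozen nuclei, 268 in batch 1 and 131 in batch 2. For Grm5 it did not, with 402 CPM in frozen nuclei, 415 in batch 1 and 187 in batch 2, so no order between frozen nuclei and batch 1 is read for Grm5. Before thinning, Grm7 was at 86.9% of frozen nuclei, 63.3% of batch 1 and 60.4% of batch 2, and Grm5 at 88.3%, 52.0% and 51.5%. The 2 frozen plates were alike, at 73.4% and 76.2% for Grm7. Markers of several cell types moved with these shares: any of the 8 cortical glutamatergic markers was in 73.2% of thinned frozen nuclei, 37.8% of batch 1 and 50.8% of batch 2, and any of the 8 GABAergic markers in 67.7%, 44.4% and 49.2%. Microglial markers were in 45.7%, 8.89% and 15.9%, oligodendrocyte precursor markers in 40.9%, 18.9% and 19.8%, and endothelial markers in 34.6%, 16.7% and 26.2%. The 9 granule neuron markers went the other way, with 55.1%, 74.4% and 93.7%. Oligodendrocyte markers were highest in batch 2 (73.2%, 67.8% and 87.3%), and astrocyte markers were near level in frozen nuclei and batch 2 (79.5%, 66.7% and 77.8%). By pooled level endothelial markers were highest in batch 2 (464, 329 and 1087 CPM). GABAergic markers were near level in frozen nuclei and batch 1 (1679 and 1658 CPM). Cortical glutamatergic, microglial and oligodendrocyte precursor markers stayed highest in frozen nuclei. The part of these markers in the result was not tested. The lower share of Grm7 in FFPE nuclei has the direction of the SMART-Seq2 wells and not that of the SCRB-seq wells.

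Grm4 went the other way in batch 2, with 49.2% of nuclei (40.2 to 58.3%), against 17.3% of frozen nuclei (11.2 to 25.0%). Batch 1 lay between, at 27.8% (18.9 to 38.2%), and its interval overlaps that of the frozen nuclei. Unthinned shares were 64.2%, 48.9% and 37.8% for batch 2, frozen nuclei and batch 1. The pooled level of Grm4 was 473 CPM in batch 1, 664 in batch 2 and 141 in frozen nuclei, where 1 nucleus held 34.7% of the counts. Among nuclei of batch 1 that had a count of Gabra6, the granule neuron marker, 16 of 24 also had Grm4 (66.7%, interval 44.7 to 84.4%), against 9 of 66 without Gabra6 (13.6%, 6.43 to 24.3%). In batch 2 the shares were 18 of 27 (66.7%, 46.0 to 83.5%) and 44 of 99 (44.4%, 34.5 to 54.8%), and the pooled levels were alike, 1074 and 1077 CPM. Gabra6 had a count in 26.7% of batch 1, 21.4% of batch 2 and 0 of the 127 thinned frozen nuclei. Grm7 had the opposite order to Grm4 in batch 1, with a count in 4 of 24 nuclei with Gabra6 (16.7%, 4.74 to 37.4%) and in 32 of 66 without (48.5%, 36.0 to 61.1%). In batch 2 it was in 7 of 27 (25.9%, 11.1 to 46.3%) and 34 of 99 (34.3%, 25.1 to 44.6%). The Grm7 intervals overlap in both batches.

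**Figure D4:**
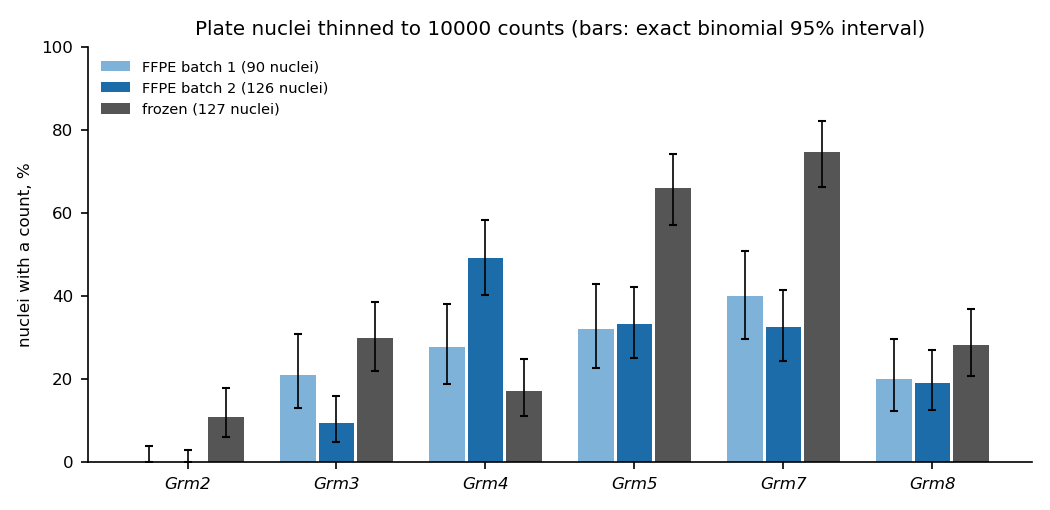
Bars give the percent of plate nuclei with at least 1 count of each receptor gene after drawing every nucleus down to 10000 counts, for FFPE batch 1, FFPE batch 2 and frozen nuclei, with exact binomial 95% intervals. Frozen nuclei are highest for Grm5 and Grm7, batch 2 is highest for Grm4, and Grm2 has no bar in either FFPE batch.

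The other 3 receptors were seen less often than Grm5 and Grm7, though Grm3 and Grm8 were in more frozen nuclei than Grm4 (17.3%). Grm3 had a count in 29.9% of frozen nuclei (22.1 to 38.7%), 21.1% of batch 1 (13.2 to 31.0%) and 9.52% of batch 2 (5.02 to 16.0%). Grm8 had a count in 28.3% of frozen nuclei (20.7 to 37.0%), 20.0% of batch 1 (12.3 to 29.8%) and 19.0% of batch 2 (12.6 to 27.0%), with overlapping intervals. The pooled level of Grm3 was 65.7 CPM in frozen nuclei, 197 in batch 1 and 46.7 in batch 2, so batch 2 lay under the frozen nuclei by both measures, while no order is read for batch 1. For Grm8 it was 89.0, 294 and 105 CPM, against the shares in both batches, so no order is read. Grm2 had a count in 14 of 127 frozen nuclei (11.0%, 6.16 to 17.8%) and in 0 of 90 and 0 of 126 thinned FFPE nuclei. Unthinned, it was in 41 of 137 frozen nuclei (29.9%), 0 of 98 in batch 1 and 1 of 134 in batch 2. With the 9 further FFPE nuclei included it was in 4 of 143 (2.80%), 3 of them with at least 5 counts. The 0 of 98 allows a share of nuclei with a count of up to 3.06% by the limit of 3 counts, and up to 3.69% by the exact interval. A frozen nucleus held more kinds of these receptors: 56 of 127 thinned frozen nuclei had at least 3 of the 6, against 12 of 90 in batch 1 and 18 of 126 in batch 2.

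Frozen nuclei were also divided by transmitter markers, a division made after values had been seen. All 14 frozen nuclei with Slc17a7, the vesicular glutamate transporter of cortical neurons, and without Gad1 or Gad2 had Grm7, and 13 of the 14 had Grm5. Of the 39 with Gad1 or Gad2, the enzymes that make GABA, and without Slc17a7, 76.9% had Grm7 (60.7 to 88.9%) and 74.4% had Grm5 (57.9 to 87.0%). Of the 60 with neither, 63.3% had Grm7 (49.9 to 75.4%) and 48.3% had Grm5 (35.2 to 61.6%). Grm8 was in 7 of 14, 15.4% and 25.0% of the same sets, and Grm4 in 2 of 14, 20.5% and 11.7%. Of these 3 sets only the first and the last have intervals that do not overlap, for Grm7 (76.8 to 100% against 49.9 to 75.4%) and for Grm5 (66.1 to 99.8% against 35.2 to 61.6%). A further 14 nuclei had both kinds of marker, and 13 of them had Grm5 and 13 Grm7. They had Grm3 in 10 of 14 (71.4%, 41.9 to 91.6%), above the Gad1 or Gad2 set (23.1%, 11.1 to 39.3%) and the set with neither (26.7%, 16.1 to 39.7%). Grm2 was in 7 of the 14 (50.0%, 23.0 to 77.0%), against 7.69% (1.62 to 20.9%) and 3.33% (0.406 to 11.5%) of those 2 sets. Against the set with Slc17a7 alone the intervals overlap, for Grm3 (21.4%, 4.66 to 50.8%) and for Grm2 (14.3%, 1.78 to 42.8%). The 14 nuclei with both kinds of marker also had the highest shares of Grm4 (35.7%, 12.8 to 64.9%) and Grm8 (57.1%, 28.9 to 82.3%). High shares there were thus not particular to Grm3 and Grm2. No doublet caller was run, and whether these 14 nuclei hold more detected genes in general was not tested.

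Droplet nuclei, all FFPE, carry the only cell classes given by the authors' annotation: 7031 nuclei in 12 classes, with a median of 325 unique molecular identifiers (UMIs) per nucleus and 0 repeated barcodes. Levels are pooled UMIs scaled as CPM, with exact Poisson 95% intervals that cover counting error only. Markers of a class had UMIs in other classes too. The sum of 8 astrocyte markers was 6527 CPM in the class called Astrocyte and 1935 to 4593 in the other classes, and the granule neuron markers summed to 4531 in ExNeuron3 and to 1464 to 3425 elsewhere. The GABAergic markers were highest in 2 classes named ExNeuron, at 2791 CPM in ExNeuron4 and 2031 in ExNeuron6, which goes against that name if it stands for excitatory neurons. Shares in Endothelial nuclei are given as a background, assuming that these nuclei lack the receptors, which was not tested. They were 12.1% for Grm5, 17.8% for Grm7, 5.17% for Grm3, 6.32% for Grm4, 2.30% for Grm8 and 0.575% for Grm2, at a median of 302 UMIs. Other non-neuronal classes lay above or under this background. Microglia had Grm5 in 18.3% (11.0 to 27.6%) and Fibroblast nuclei Grm7 in 29.8% (17.3 to 44.9%), with intervals that overlap the endothelial ones. Above background thus means above this 1 class.

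Grm3 stood highest in 2 glial classes. Its level was 699 CPM in Oligodendrocyte nuclei (551 to 875) and 508 in Astrocyte nuclei (421 to 608), followed by ExNeuron1 at 306 (269 to 346), ExNeuron5 at 285 (202 to 391) and OPC at 274 (170 to 419). The 2 glial classes have overlapping intervals with each other and none with ExNeuron1. The lowest levels were in ExNeuron2 at 130 and ExNeuron3 at 110 CPM. Shares ran from 3.80% of ExNeuron3 to 22.1% of Oligodendrocyte nuclei (17.6 to 27.3%) at a median of 314 UMIs, and after thinning to 300 UMIs the latter was 19.4%.

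Grm4 stood highest in ExNeuron3, the class with the most granule neuron markers, at 400 CPM (340 to 468) and in 12.9% of nuclei (11.0 to 15.1%, median 321 UMIs). After thinning the share was 11.4% (9.20 to 14.0%), whose interval overlaps the endothelial one (5.62%, 1.85 to 12.6%), as the CPM interval also does (97.0 to 348 in Endothelial nuclei). The next class, ExNeuron2, had 211 CPM (166 to 266) and the next largest sum of granule markers, 3425 CPM. All classes other than ExNeuron3 lay between 50.5 and 211 CPM with overlapping intervals, and their shares of 2.13% to 7.18% include the background of 6.32%.

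**Figure D5:**
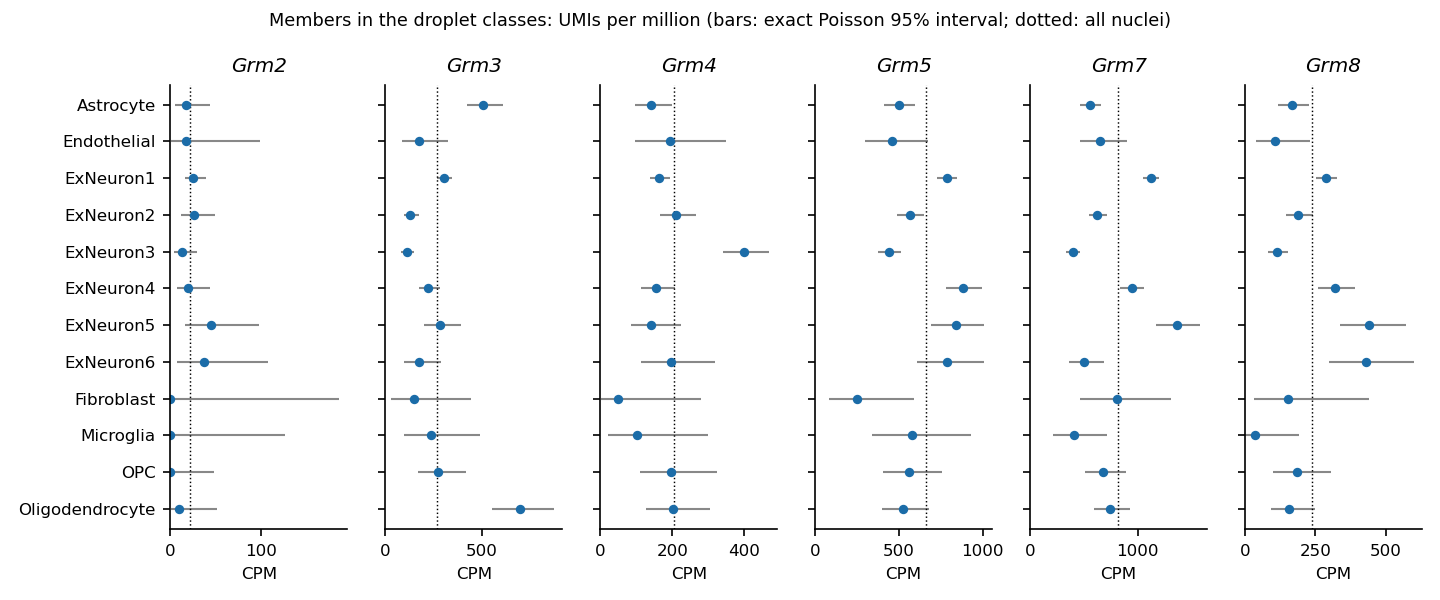
Points are the pooled level in CPM of each receptor gene in the 12 annotated droplet classes, with exact Poisson 95% intervals, and the dotted line is the level over all 7031 nuclei; the CPM axes are linear and differ between genes. Grm3 is highest in Oligodendrocyte and Astrocyte nuclei, Grm4 in ExNeuron3, and Grm5, Grm7 and Grm8 are low in ExNeuron3.

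Among the 6 neuron classes ExNeuron3 was the lowest by pooled level for every member other than Grm4. In each case its interval overlaps that of the next lowest neuron class. Grm5 was highest in ExNeuron4 at 883 CPM (780 to 995), ExNeuron5 at 840 (692 to 1011), ExNeuron6 at 788 (607 to 1006) and ExNeuron1 at 785 (726 to 848), which do not differ beyond their intervals. ExNeuron2 had 564 CPM and ExNeuron3 439 (375 to 510). Glial classes lay between, at 500 in Astrocyte, 524 in Oligodendrocyte and 562 in OPC nuclei. The Grm5 shares of ExNeuron2, ExNeuron3, Astrocyte and Oligodendrocyte nuclei were 13.1% to 16.5%, within the interval of the endothelial background (7.63 to 17.9%). The CPM intervals of ExNeuron1, ExNeuron4 and ExNeuron5 lie above that of Endothelial nuclei (300 to 673), and that of ExNeuron6 overlaps it. After thinning the share of ExNeuron4 was 19.9% (16.7 to 23.5%), which overlaps the endothelial 13.5% (7.17 to 22.4%). Thinning also moved its largest share to Microglia, at 11 of 37 nuclei (29.7%, 15.9 to 47.0%), against 18.3% of all 93 microglia before thinning.

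Grm7 was highest in ExNeuron5 at 1365 CPM (1174 to 1578), then ExNeuron1 at 1121 (1050.3 to 1196) and ExNeuron4 at 946 (839 to 1062), each neighbour overlapping the next. ExNeuron2 had 625 CPM, ExNeuron6 505 (362 to 684) and ExNeuron3 395 (335 to 463), the lowest of the 12. By pooled level both the highest and the lowest class were thus neurons, but Microglia had 410 CPM (212 to 716), which overlaps ExNeuron3. Microglia lay under ExNeuron3 by the mean of single nuclei (345 against 382 CPM) and by share (10.8% against 12.1%). Grm7 was in 32.9% of ExNeuron5 (27.9 to 38.3%) and 27.5% of ExNeuron1 nuclei (25.6 to 29.5%), above the endothelial background of 17.8% (12.4 to 24.3%), and in 12.1% of ExNeuron3 nuclei. After thinning, 26.7% of ExNeuron5 (21.3 to 32.6%) and 26.4% of ExNeuron1 (24.1 to 28.9%) overlap the endothelial 16.9% (9.75 to 26.3%), so these shares are not set apart from background at equal depth. The CPM intervals of both classes lie above that of Endothelial nuclei (460 to 901). Fibroblast nuclei, 47 in all, had 808 CPM with an interval from 462 to 1311, and Grm7 in 29.8% (17.3 to 44.9%).

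Grm8 was highest in ExNeuron5 at 442 CPM (337 to 571) and ExNeuron6 at 431 (300 to 599), followed by ExNeuron4 at 321 (260 to 391) and ExNeuron1 at 288 (252 to 327). By the mean of single nuclei ExNeuron6 came first and ExNeuron5 next. ExNeuron3 had 113 CPM (82.0 to 152) and Microglia 34.1, from 1 UMI. The share was 13.9% in ExNeuron5 (10.4 to 18.1%) and 13.4% in ExNeuron6 (9.09 to 18.8%), against the endothelial 2.30% (0.630 to 5.78%). After thinning the intervals overlap, at 13.1% (9.23 to 18.0%), 11.3% (6.74 to 17.5%) and 3.37% (0.701 to 9.54%), while the CPM intervals of both classes lie above that of Endothelial nuclei (38.9 to 231). Grm2 gave 56 UMIs in all 7031 nuclei, at most 45.0 CPM in ExNeuron5 (16.5 to 97.9), and all its class intervals overlap.

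Per 100 kb of gene span, the levels of the members over all droplet nuclei lay closer together than in CPM alone. They were 206 CPM per 100 kb for Grm4, 166 for Grm2, 120 for Grm5, 111 for Grm3, 89.0 for Grm7 and 27.6 for Grm8. Per kb of exon the order changed, with Grm7 first at 139 and Grm2 last at 4.39 CPM per kb. In SCRB-seq FFPE wells Grm7 reached 569 CPM per 100 kb, above Grm4 at 345, and in SMART-Seq2 FFPE wells it had 25.9, against 371 for Grm4.

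For the 5 members other than Grm2, which had too few UMIs, the genes whose levels followed each most closely over the 12 droplet classes were picked by Pearson's r of log2(CPM + 10) among 5106 genes with at least 100 UMIs. Among them were Sgcz (r = 0.955) and Tenm2 for Grm5, Tbc1d5 (0.806), Prickle2 and Arap2 for Grm3, and Sptb (0.944), Trim33 and Pde10a for Grm4. For Grm7 they were Phf24 (0.853), Asap1 and Lingo2, and for Grm8 Dapk1 (0.947), Kcnma1 and Gars. These describe 12 classes of 1 library that share its depth and background, and carry no test. Between members, Grm7 and Grm8 were closest (r = 0.644), then Grm5 and Grm8 (0.541), while Grm4 and Grm7 had -0.302.

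Around the receptors, a list of 32 scaffold, signalling, partner and transporter genes was followed in the same fits. In SCRB-seq, FFPE minus frozen, 16 were tested and 6 called (background 58.0%), 3 higher and 3 lower, with a median of -0.03. With DESeq2's size factors, and by its Wald test, 10 of the 16 were called, 2 higher and 8 lower (backgrounds 66.5% and 67.9%), with Gnaq, Plcb1, Shank2 and Shank3 among those added to the lower. Higher were Glul, which makes glutamine from glutamate (2.71), Slc1a3, a glial glutamate transporter (2.57), and Adcy1, a calcium-stimulated adenylyl cyclase (1.24). Lower were Itpr1, the calcium release channel opened by IP3 (-2.77), Homer1, which ties group I receptors to it (-1.63), and Shank1, a postsynaptic scaffold (-1.56). Adjusted p-values from edgeR ran from 2.98e-09 for Itpr1 to 0.00359 for Adcy1. All 6 calls were lost with pools as units, that of Adcy1 with DESeq2's size factors too (0.71 on the log2 scale), and that of Shank1 in wells of 100 nuclei. The glial markers given above were higher in the same wells, the oligodendrocyte ones except with mineral oil, and the astrocyte list holds Slc1a3 itself. Their part in the result was not tested.

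In SMART-Seq2, 30 of the 32 were tested and 5 called (background 4.09%), with a median of -0.61. Plcb4, a phospholipase C of the group I pathway (2.01, adjusted p = 0.00501 by edgeR), and Adcy1 (1.93, adjusted p = 0.00467) were higher in FFPE. Shank2 (-3.22, adjusted p = 0.000255) and Itpr1 (-2.56, adjusted p = 0.0117) were among the 3 that were lower. The call of Itpr1 was lost when any of the 3 frozen wells was left out, with adjusted p up to 0.0928. Adcy1 and Itpr1 were called in the same direction by both chemistries. In the droplet classes Adcy1 and Plcb4 were highest in ExNeuron3, at 744 and 554 CPM, and Itpr1 was lowest there at 208. The joint fit called 2 of 28 genes of the list as differing between chemistries (background 2.66%), among them Shank2 (2.72, adjusted p = 0.0226 by edgeR). limma called 0 of the 28 (6 at an unadjusted p under 0.05), with an adjusted p of 0.0926 for Shank2.

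Between the paraffin methods, edgeR called 2 of 11 tested genes of the list in SCRB-seq for mineral oil minus heated xylene, Adcy1 (1.66) and Shank2 (-1.70), where the background was 8.52%. For mineral oil minus room-temperature xylene it called 3 of 11, Shank2 (-2.11), Kcnj3, a potassium channel opened by Gi and Go (-1.78), and Plcb1 (-1.59), against 10.3%. With the nuclei number as a factor the counts were 3 and 7 of 11 (backgrounds 13.2% and 18.6%). Of the genes named here only Adcy1 was called in wells of 100 nuclei alone, and none with pools as units. Heated minus room-temperature xylene gave 0 of 11 by edgeR (4 at an unadjusted p under 0.05) and 0 by DESeq2.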

How the data were processed

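Nuclei of FFPE and frozen mouse brain were profiled in bulk wells (SCRB-seq, SMART-Seq2), in plates (SMART-Seq2) and in droplets. The authors deposited tables of raw counts per gene (UMIs for droplets), with tables that name each well's treatment and nuclei number and each droplet nucleus's class. The genome builds mm10 and hg19 are named in the submitters' processing notes; the aligner and counter are not stated in these sources. Human genes, which the SCRB-seq table also lists, entered neither totals nor tests. Receptor loci come from GENCODE M21.

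Counts were filtered with filterByExpr, scaled by TMM and tested with edgeR 4.0.16's quasi-likelihood test over all genes, with Benjamini-Hochberg adjustment and a threshold of 0.05 (R 4.3.3). FFPE minus frozen is the mean of the 3 methods minus frozen. CPM divides by the mouse total of the well. DESeq2 1.42.0, limma 3.58.1, other scalings and filters, wells left out and summed pools served as alternatives. The fits were tested on simulated data. Nuclei were thinned to 10000 counts (plates) or 300 UMIs (droplets), with no doublet caller. Python 3.11.15 and scipy 1.17.1 gave intervals, at a level of 95%. Intervals and limits cover counting error only. Totals per sample are in the text above.

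Named were all 6 members, every gene of the pathway list that was called, and the 3 genes most like each member with at least 100 UMIs, except 2 genes that are not reported here. The members, the lists and the tests were chosen with earlier results of these data known.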

Additional observations from a re-analysis of the deposited data

Results flagged for a closer look

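Among 48 groups of 8 SCRB-seq wells (1 gene, treatment and nuclei number), 8 had a highest well set far apart from the others, where chance gives about 1 in 20 groups of normally distributed values. These are CPM from low counts, and in some Grm2 groups every well is at 0, so that rate was not established here. For Grm2 it was a room-temperature xylene well of 100 nuclei at 72.6 CPM, from 4 counts, with the others at 0 to 23.4. For Grm3 it was a heated xylene well of 100 nuclei at 237 CPM, with the others at 0 to 88.3. For Grm4 there was a mineral oil well of 10 nuclei at 575 CPM, from 6 counts of 10433, with the others at 0 to 62.4, and a mineral oil well of 100 nuclei at 444, with the others at 0 to 207. For Grm5 a heated xylene well of 10 nuclei had 2279.6 CPM, with the others at 28.2 to 413, and a room-temperature xylene well of 10 nuclei had 714, with the others at 0 to 329. Within the 8 heated xylene wells of 10 nuclei, 1 well had 8968 CPM of Grm7, with the others at 6634 to 7547, and 1 had 1314 of Grm8, with the others at 0 to 328.

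The difference between FFPE and frozen wells in Grm7 was itself different between the chemistries, by 4.43 on the log2 scale in the joint edgeR fit.

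The SCRB-seq table also lists human genes. Human GRM7 had 196 counts in 43 FFPE wells, or 58.0 CPM of all counts, and 12 counts in 8 frozen wells, or 11.0 CPM. These counts are 1.12% of those of the mouse and human gene together.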

How the results depend on the processing

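The cause of the changes below was not tested, except that summed pools leave fewer units and no filter tests more genes. Without the filter on low counts the genes called numbered 3415 (mineral oil minus heated xylene), 2899 (heated minus room-temperature xylene), 2925 (mineral oil minus room-temperature xylene) and 4785 (FFPE minus frozen) in SCRB-seq, and 19, 5 and 16 for the methods in SMART-Seq2. With the nuclei number as a factor the SCRB-seq method counts were 143, 62 and 201, and in wells of 100 nuclei 256, 117 and 178. Wells of 10 nuclei gave 478 for FFPE minus frozen. Without the 8 mineral oil wells of 10 nuclei, chosen after seeing the data, the counts were 173 (mineral oil minus heated xylene) and 1312 (FFPE minus frozen). With pools as units they were 0, 0 and 0 for the methods and 77 for FFPE minus frozen. In SCRB-seq, DESeq2's Wald test gave 36 for heated minus room-temperature xylene, and in SMART-Seq2 it gave 16, 1, 20 and 630 for the comparisons in the same order; limma gave 99 for the difference between chemistries. With 1 SMART-Seq2 well left out, where an arm of few wells is assumed to vary like the others, the counts ran from 0 to 6 (mineral oil minus heated xylene), 0 to 0, 0 to 8 and 162 to 469 (FFPE minus frozen, lowest without the frozen well of 10 nuclei). With DESeq2's size factors 31.4% of the SCRB-seq calls of FFPE minus frozen were higher, against 52.2%. Calls of members lost with pools as units were FFPE minus frozen for Grm3 (-1.93), Grm4 (2.83), Grm5 (-1.84), Grm7 (1.14) and Grm8 (-0.79), and the mineral oil calls of Grm4 (-1.70 and -1.43) and Grm8 (-1.54). Grm8 in FFPE minus frozen also lost its call without the filter (-0.59), in wells of 100 nuclei (-0.35) and without the mineral oil wells of 10 nuclei (-0.52), as did Grm8 in mineral oil minus heated xylene without those wells (-1.28). Grm4 in mineral oil minus room-temperature xylene lost it in wells of 100 (-1.12) and of 10 nuclei (-2.01) and without those wells (-1.0). Signs turned only in differences that were not called. In heated minus room-temperature xylene, Grm5 was at -0.03 with DESeq2's size factors, -0.01 by the Wald test, -0.49 in wells of 100 nuclei and -0.29 with pools. Grm5's difference between chemistries was -0.50 by limma, and Grm7 in mineral oil minus heated xylene was 0.10 with pools. In SMART-Seq2, Grm8 in mineral oil minus room-temperature xylene was 0.02 with the nuclei number as a factor and -0.88 to 0.79 with 1 well left out, Grm3 there -0.98 to 0.94, and Grm4 in heated minus room-temperature xylene -0.32 to 0.66. Over all 143 FFPE plate nuclei 5 members were lower than in frozen nuclei by the mean of single nuclei and 3 by the pooled level, and 4 by the pooled level without the 9 nuclei beside batch 2. In batch 1, Grm3 and Grm8 were higher by the mean (251 against 82.0 and 219 against 111 CPM). No paired analysis by replicate was possible because the labels give the groups compared no shared replicate numbers; the fits with the nuclei number as a factor block wells of the same number.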
